A study of Mus musculus with 9 samples.

Results

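The mRNAs of 9 proteins that set how long other mRNAs last were followed in MyC-CaP cells treated with asporin (ASPN). The set was fixed by name: Zfp36, Zfp36l1, Zfp36l2, Zc3h12a, Zc3h12c, Rc3h1, Rc3h2, Elavl1 and Khsrp, which are 9 of the 15384 genes in the count table. MyC-CaP is a cell line from a prostate carcinoma of a mouse that carries a prostate-directed human MYC transgene, and every library came from this single line. ASPN is a small proteoglycan that fibroblasts of the tumor stroma secrete. RNA was sequenced from cells at time 0 and after 12 or 24 hours with recombinant mouse ASPN at 100 ng/mL, in 3 libraries per time point, and all cells had first been held without serum or calcium for 6 to 12 hours. The labels name ASPN as the treatment at time 0 too. Each library is labeled as a biological replicate, and the wells were plated in triplicate, so p-values measure the spread between these wells. No well kept for 12 or 24 hours without ASPN is among the 9 libraries, so ASPN and time in culture cannot be told apart. In bulk RNA, fewer cells that express a gene and less RNA per cell cannot be told apart either.

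Many short-lived mRNAs, such as those of cytokines, growth factors and transcription factors, carry decay signals in the 3′ untranslated region (3′ UTR). Zfp36 (tristetraprolin) and its relatives Zfp36l1 and Zfp36l2 bind AU-rich elements through CCCH zinc fingers and bring in the CCR4-NOT deadenylase, which removes the poly(A) tail. Zc3h12a (Regnase-1) is an endoribonuclease that cuts mRNAs at stem-loops and works with the helicase Upf1, and Zc3h12c (Regnase-3) is a relative of it. Rc3h1 and Rc3h2 encode Roquin-1 and Roquin-2, which bind stem-loops and also recruit deadenylases. Khsrp (KSRP) binds AU-rich elements and promotes decay, whereas Elavl1 (HuR) binds AU- and U-rich elements and protects mRNAs. Zfp36 and Zc3h12a are known as feedback genes of inflammatory signaling, since they are induced by the same signals as many of their targets.

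All positions refer to the mouse build GRCm38 and are those of the count table. Zfp36 (ENSMUSG00000044786.6) lies at chr7:28376784-28380253, Zfp36l1 (ENSMUSG00000021127.7) at chr12:80107754-80113013 and Zfp36l2 (ENSMUSG00000045817.8) at chr17:84183931-84187947. Zc3h12a (ENSMUSG00000042677.7) lies at chr4:125118423-125127840 and Zc3h12c (ENSMUSG00000035164.8) at chr9:52111344-52168572. Rc3h1 (ENSMUSG00000040423.11) lies at chr1:160906418-160974978 and Rc3h2 (ENSMUSG00000075376.10) at chr2:37370069-37422903. Elavl1 (ENSMUSG00000040028.10) lies at chr8:4285382-4325413 and Khsrp (ENSMUSG00000007670.10) at chr17:57021051-57031522. Rc3h1 is on the plus strand and the other members are on the minus strand. Exons of Zfp36l1 share 1672 bases with the lincRNA Gm26669 on the opposite strand, those of Elavl1 share 204 bases with Ccl25 and those of Zfp36 share 125 bases with Gm44710. Whether reads were counted by strand is not given in the sources used here, so reads of such partners cannot be told apart from those of the members.

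Several members carry the signal that the family reads. The AU-rich nonamer TTATTTATT, the core site of Zfp36 proteins, was present in the longest annotated 3′ UTR of 6 of the 9 members. Of the 11340 genes with a 3′ UTR tested at 12 hours, 925 held it. Those of Rc3h1, Rc3h2 and Elavl1 are 7181, 5331 and 4218 bases long, beside a median of 1157. That of Zfp36 has 774 bases, and that of Zc3h12c, without the nonamer, has 4062. The nonamer occurred 1 time each in Zfp36, Zfp36l1, Zfp36l2, Rc3h1 and Rc3h2. In Elavl1 it occurred 8 times when overlapping copies within clusters were counted, and these letters were not found in the 3′ UTRs of Zc3h12a, Zc3h12c or Khsrp. The sites are shown because they are what Zfp36 proteins bind, 5′ to 3′ on the strand of the gene as DNA letters, with the nonamers in capitals. Of Elavl1, 2 of its clusters are shown.
Zfp36, chr7:28376955-28376975: acgactTTATTTATTgtatta
Zfp36l1, chr12:80108171-80108191: gttggaTTATTTATTttagaa
Zfp36l2, chr17:84184918-84184938: tttaacTTATTTATTatcttg
Rc3h1, chr1:160970047-160970067: tactcaTTATTTATTgagatg
Rc3h2, chr2:37373291-37373311: gacattTTATTTATTttactc
Elavl1, chr8:4285782-4285810: aaaaTTATTTATTTATTTATTTATTttta
Elavl1, chr8:4285746-4285774: gtttgtTTATTTATTTATTTATTacttgt
The corresponding sites of known targets that are described further on were found by the same search for the nonamer, so these letters are shared by design. They are 1 of the 2 in Cxcl1, a cluster in Cxcl2, 1 of the 2 in Lif and the single one in Ptgs2.
Cxcl1, chr5:90892619-90892639: atgtatTTATTTATTccacaa
Cxcl2, chr5:90905340-90905364: atgtatTTATTTATTTATTaattcc
Lif, chr11:4272043-4272063: gggcctTTATTTATTatttaa
Ptgs2, chr1:150105794-150105814: ccatatTTATTTATTtatgtg

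The libraries held 41881191 to 52993821 counts. Values are in CPM, the count scaled per megaread of the library total after correction by trimmed mean of M values (TMM) factors, and 3 counts correspond to 0.0551 to 0.0733 CPM. The 24-hour libraries stood apart, with TMM factors of 0.899 to 0.914 against 1.04 to 1.07 in the other 6, and with 0.113% to 0.203% of counts in mitochondrial genes against 2.60% to 2.85%. The part of this in the changes at 24 hours was not tested beyond the other scalings given beside the results. Of the epithelial and prostate markers reported here, Hoxb13 and Krt8 were clearly present (67.6 to 104 and 24.8 to 42.2 CPM), while Epcam had at most 1 count, Cdh1 at most 10 and Krt18 at most 22 in any library. The 4 immune markers measured summed to at most 0.190 CPM in any library, and the 5 stromal and endothelial ones to 8.75 to 14.0 CPM, nearly all of it Pdgfra.

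All 9 members were well above the floor in every library and passed the filter on low counts in each comparison. Zfp36l2 and Khsrp were the abundant members at time 0. On a scale of CPM per kilobase of exon, the means over the 3 libraries were 81.6 for Zfp36l2 and 58.6 for Khsrp, followed by 16.9 for Zfp36, 11.2 for Zfp36l1, 5.69 for Elavl1 and 3.61 for Rc3h1. Rc3h2 (2.24) and Zc3h12c (2.11) followed with overlapping libraries, and Zc3h12a was the lowest at 1.59. Zc3h12a rose from last place to a level of 13.8 after 12 hours and 8.11 after 24 hours, above Elavl1, Rc3h1, Rc3h2 and Zc3h12c in both. When the longest transcript was used in place of all exons, Rc3h2 (4.90) stood above Rc3h1 (3.71) at time 0, and after 24 hours Zc3h12a (8.49) and Elavl1 (10.2) overlapped, as did Zfp36 (32.1) and Khsrp (30.6).

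**Figure D1:**
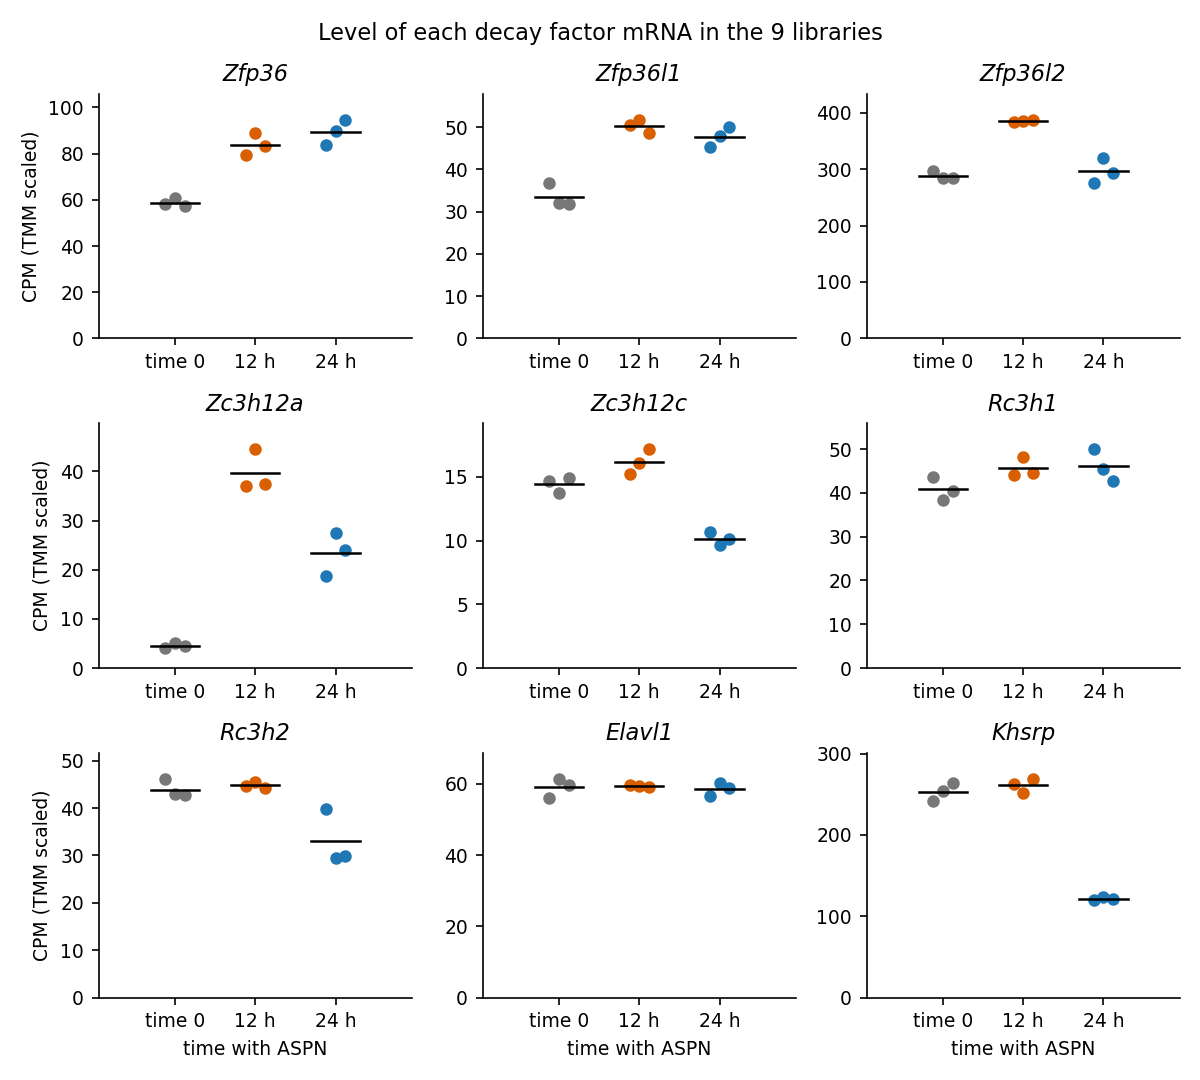
Level of each of the 9 mRNAs in CPM, TMM scaled (vertical axis, from 0, a scale of its own in each panel), at time 0 and after 12 and 24 hours with ASPN. Points are the 3 libraries of a time point and the line is their mean. Zc3h12a goes from 4.11 to 5.06 CPM at time 0 to 37.0 to 44.4 after 12 hours, Khsrp drops to 120 to 123 after 24 hours and Elavl1 stays between 56.0 and 61.2.

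To define the early response, 12 hours with ASPN was compared with time 0. A gene was called when edgeR's quasi-likelihood test gave a p of at most 0.05 after Benjamini-Hochberg adjustment and the change was at least 1.5-fold. By this rule 2 of the 9 members were called, Zc3h12a and Zfp36l1, both higher, against 1.60% of the 11410 genes tested (1.5% called higher). Without the fold limit 4 of the 9 passed, the 3 Zfp36 family members and Zc3h12a, all higher, against 10.3% of genes (6.85% higher). In 6 of the 9 members the libraries of the 2 groups did not overlap, against 27.0% of genes.

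Zc3h12a, the gene of Regnase-1, changed most of the members. Its level was 4.11, 5.06 and 4.59 CPM in the time 0 libraries and 37.0, 44.4 and 37.5 CPM after 12 hours, from 198 to 250 counts and from 1640 to 2065 counts. Every treated library was thus far above every time 0 library. The change was 8.67-fold (log2 fold change 3.12, SE 0.087, adjusted p = 1.1e-13). The 3 mRNAs whose profile over the 9 libraries was closest to that of Zc3h12a, among 8349 genes with a mean of at least 10 CPM, were Icam1, an adhesion molecule for leukocytes, Relb, a subunit of NF-κB, and Nfkbiz, an NF-κB cofactor that is itself a Regnase target. Their root mean square distances were 0.29, 0.41 and 0.41 on the log2 scale, so even the nearest profile was not close.

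The 3 Zfp36 genes were higher together, by less than Zc3h12a. Zfp36 went from 58.0, 60.6 and 57.5 CPM to 79.5, 88.8 and 83.1 CPM (log2 fold change 0.52, SE 0.042, adjusted p = 1.4e-07). At 1.43-fold it stayed under the fold limit, although the groups did not overlap. Zfp36l1 went from 36.8, 32.0 and 31.9 CPM to 50.4, 51.8 and 48.7 CPM (log2 fold change 0.59, SE 0.054, adjusted p = 6.6e-07). Its change lay just past the 1.5-fold limit and was under it without time 0 replicate 2 (0.56), time 0 replicate 3 (0.55) or the 12-hour replicate 2 (0.57), and also with upper-quartile factors (0.58), total counts (0.57) and offsets for transcript length and GC content (0.56). The call thus rests on single libraries and on the scaling, while the direction was the same in all of these. Zfp36l2 went from 296, 284 and 285 CPM to 384, 386 and 388 CPM (log2 fold change 0.43, SE 0.031, adjusted p = 5.3e-08). This 1.34-fold change was the smallest of the family in ratio but, at that abundance, the largest in CPM.

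The other members were near their time 0 level. Zc3h12c measured 14.7, 13.8 and 14.9 CPM at time 0 and 15.2, 16.1 and 17.1 CPM after 12 hours (log2 fold change 0.16, SE 0.070, adjusted p = 0.18). Rc3h1 measured 43.6, 38.5 and 40.4 CPM and then 44.1, 48.3 and 44.4 CPM (log2 fold change 0.16, SE 0.051, adjusted p = 0.053). In both, the groups did not overlap but the difference missed the threshold. That of Rc3h1 passed the adjusted p with no filter (0.0069) and without time 0 replicate 1 (0.0033). The log2 fold changes of Rc3h2, Elavl1 and Khsrp were 0.03, 0.01 and 0.05, with SEs of 0.043, 0.039 and 0.037 and adjusted p-values of 0.72, 0.90 and 0.51, and their libraries overlapped between groups.

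**Figure D2:**
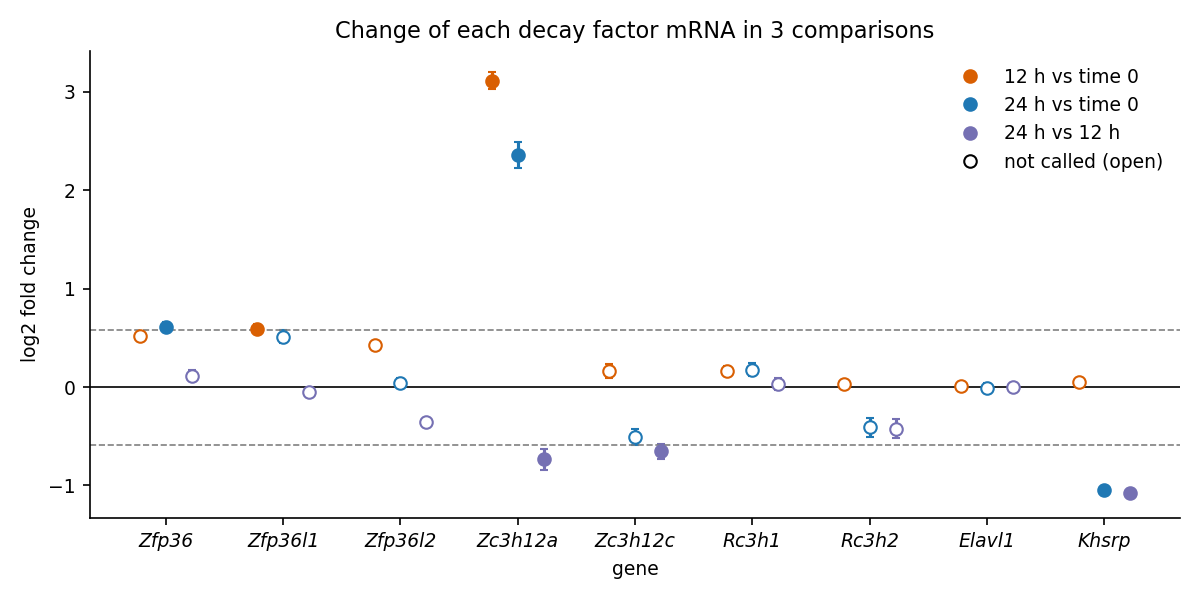
Log2 fold change of each member (vertical axis) in the 3 comparisons, with bars of 1 SE. Filled points were called, open points were not, and dashed lines mark 1.5-fold. Zc3h12a reaches 3.12 after 12 hours and 2.36 after 24 hours, and Khsrp lies at -1.05 and -1.08 in the comparisons of 24 hours.

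The later state was read from 24 hours against time 0. Here 3 of the 9 members were called, with Zc3h12a and Zfp36 higher and Khsrp lower, which is near the 28.8% of 11444 genes called in this comparison (12.0% higher and 16.8% lower). Without the fold limit 7 of the 9 passed, 4 higher and 3 lower, against 70.9% of genes (34.4% higher and 36.5% lower), and 6 of the 9 did not overlap, against 73.9%. These shares are near those of genes in general, so the single changes are described and nothing is read from the count.

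Zc3h12a remained high at 24 hours. Its libraries measured 18.7, 27.4 and 24.0 CPM, all above the time 0 range, a 5.12-fold change (log2 fold change 2.36, SE 0.13, adjusted p = 4.2e-09). The first 24-hour library was the lowest of the 3. Zfp36 measured 83.9, 89.8 and 94.7 CPM, which was 1.53-fold above time 0 (log2 fold change 0.61, SE 0.051, adjusted p = 1.5e-07). It fell under the fold limit without the 24-hour replicate 3 (0.57) and when libraries were scaled by total counts (0.39). Zfp36l1 measured 45.2, 47.8 and 49.97 CPM (log2 fold change 0.51, SE 0.064, adjusted p = 8.6e-06), again with no overlap with time 0. Its 1.43-fold change was past the limit only without time 0 replicate 1, at 0.60. Zfp36l2 measured 275, 320 and 294 CPM, overlapping the time 0 libraries (log2 fold change 0.04, SE 0.052, adjusted p = 0.45).

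Khsrp was the only member called lower against time 0. It measured 241, 254 and 264 CPM at time 0, 262, 252 and 269 CPM after 12 hours and 120, 123 and 121 CPM after 24 hours. The 24-hour libraries lay close together at 48.3% of the time 0 level (log2 fold change -1.05, SE 0.043, adjusted p = 3.3e-10). The change was called under each of the 12 alternatives and without any single library, from -1.27 with total counts, where the median over all genes was itself -0.24, to -0.75 with offsets for transcript length and GC content. The closest profiles to Khsrp were those of Traf3ip1, Rnf139 and Morc2a, at distances of 0.038, 0.047 and 0.049. All 3 likewise stood at about the same level at time 0 and 12 hours and lower at 24 hours, Traf3ip1 for instance at 24.3, 25.1 and 11.8 CPM on average. Elavl1, which acts in the opposite direction to Khsrp on AU-rich mRNAs, measured 56.0, 61.2 and 59.7 CPM at time 0 and 56.5, 60.2 and 58.6 CPM after 24 hours (log2 fold change -0.01, SE 0.049, adjusted p = 0.91). With total counts it was at -0.23 (adjusted p = 0.0018), near the median over all genes in that fit.

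Zc3h12c and the Roquin genes differed from time 0 by less. Zc3h12c was at 10.7, 9.63 and 10.1 CPM, or 70.2% of time 0 (log2 fold change -0.51, SE 0.081, adjusted p = 7.5e-05). Among the other scalings and tools it reached the fold limit only with total counts, at -0.73. Rc3h2 measured 46.1, 42.9 and 42.7 CPM at time 0 and 39.8, 29.4 and 29.8 CPM after 24 hours (log2 fold change -0.41, SE 0.095, adjusted p = 0.0017). The first 24-hour library was well above the other 2, and the log2 fold change was -0.56 without it and -0.63, past the fold limit, with total counts. Rc3h1 measured 49.9, 45.5 and 42.8 CPM after 24 hours and overlapped time 0 (log2 fold change 0.18, SE 0.065, adjusted p = 0.026). It no longer passed without time 0 replicate 2 (0.10), time 0 replicate 3 (0.062) or the 24-hour replicate 1 (adjusted p = 0.10). Its sign turned with total counts, at -0.04.

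**Figure D3:**
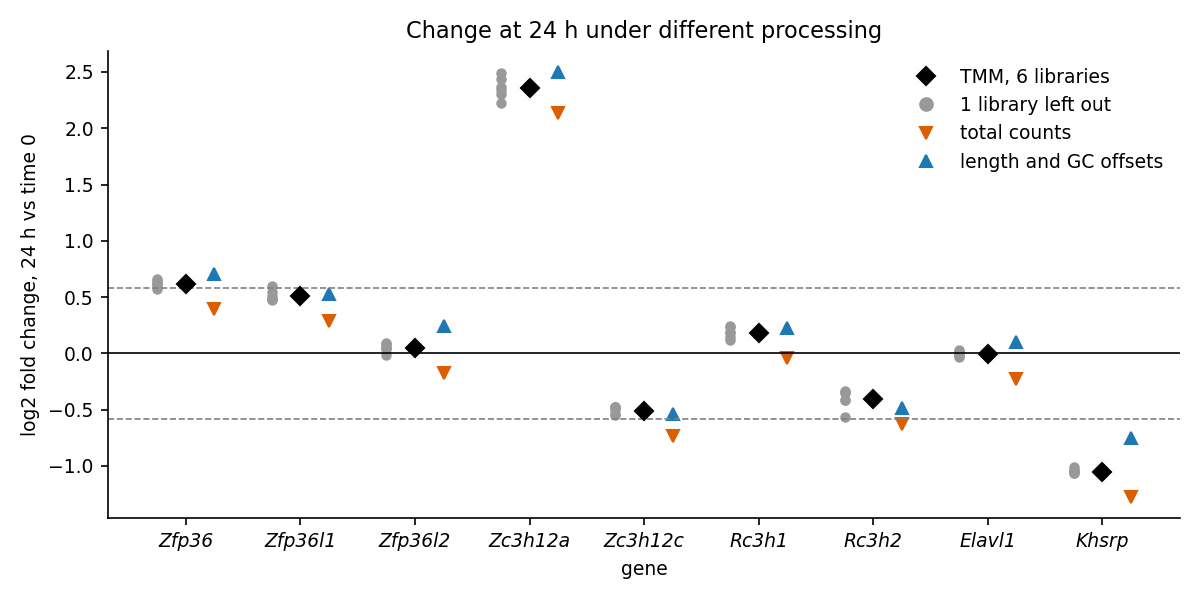
Log2 fold change of each member at 24 hours against time 0 (vertical axis) with TMM scaling and all 6 libraries (diamonds), with 1 library left out (grey points), with total counts (downward triangles) and with length and GC offsets (upward triangles). Dashed lines mark 1.5-fold. Zc3h12a stays between 2.13 and 2.50 and Khsrp between -1.27 and -0.75, whereas Zfp36l2, Rc3h1 and Elavl1 lie on both sides of 0.

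The step from 12 to 24 hours was tested directly. Of the 9 members 3 were called, Zc3h12a, Zc3h12c and Khsrp, all lower at 24 hours, against 25.7% of 11394 genes (15.3% lower). Without the fold limit 5 passed, all lower (71.3% of genes, 35.6% lower), which adds Zfp36l2 and Rc3h2, and in these 5 the groups did not overlap (73.9% of genes). Zc3h12a stood at 60.1% of its 12-hour level (log2 fold change -0.74, SE 0.11, adjusted p = 4.0e-05). Zc3h12c stood at 63.6% (log2 fold change -0.65, SE 0.076, adjusted p = 4.4e-06) and Khsrp at 47.4% (log2 fold change -1.08, SE 0.037, adjusted p = 7.5e-11). Zfp36l2 went from 384 to 388 CPM down to 275 to 320 CPM (log2 fold change -0.36, SE 0.046, adjusted p = 1.2e-05), and Rc3h2 differed by -0.42 on the log2 scale (SE 0.093, adjusted p = 0.0011), or by -0.64 with total counts, where it was called too and the members called were 4. Zfp36 and Zfp36l1 differed between 12 and 24 hours by 0.12 and -0.06 (log2, adjusted p = 0.054 and 0.32), with overlapping libraries. This too depended on the scaling, since Zfp36l1 was at -0.28 with total counts (adjusted p = 0.00015) and Zfp36 at 0.20 with the length and GC offsets (adjusted p = 0.0014). Zfp36 also passed with upper-quartile factors (adjusted p = 0.021), no filter (0.038) and without the 12-hour replicate 2 (0.025) or the 24-hour replicate 1 (0.0055). With TMM scaling the Zfp36l2 libraries thus overlapped those of time 0 again after 24 hours while those of the other pair stayed above them. The place of Zfp36l2 against time 0 depended on the scaling, at 0.24 with the length and GC offsets (log2, adjusted p = 0.00021) and -0.18 with total counts (adjusted p = 0.0065), and its change from 12 to 24 hours was -0.17 and -0.58 in these fits.

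The makeup of the Zfp36 family followed from this. Per kilobase of exon, Zfp36l2 made up 74.4% ± 0.360 (SD, n = 3) of the summed family mRNA at time 0, 72.7% ± 0.818 after 12 hours and 66.7% ± 1.52 after 24 hours. Zfp36 made up 15.4% ± 0.641, 16.1% ± 0.714 and 20.5% ± 0.966, and Zfp36l1 10.2% ± 0.586, 11.2% ± 0.291 and 12.7% ± 0.562. Zfp36l2 thus stayed the main family mRNA at each time, while the share of Zfp36 was higher in each 24-hour library (19.5% to 21.5%) than in any other (14.8% to 16.8%). The summed level was 110 ± 2.76 CPM per kilobase at time 0, 150 ± 1.79 after 12 hours and 126 ± 7.78 after 24 hours. The rise at 12 hours was as clear with total counts (116 to 157), but the level at 24 hours was then 114 ± 6.82 and overlapped time 0. With 3 libraries against 3, the smallest p that an exact permutation test can give is 0.1, and these shares and sums are therefore given as values.

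**Figure D4:**
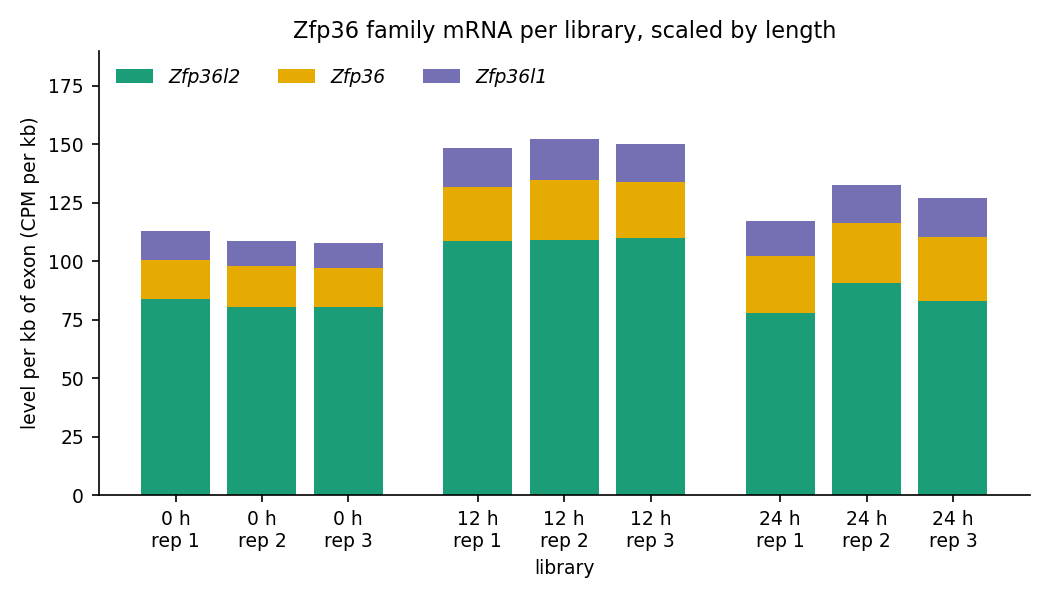
Summed level of Zfp36l2, Zfp36 and Zfp36l1 in each of the 9 libraries, in CPM per kilobase of exon (vertical axis, from 0), stacked by gene. Zfp36l2 makes up 74.0% to 74.7% of the bar at time 0 and 65.4% to 68.4% after 24 hours, and the bars are highest after 12 hours at 149 to 152.

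Ratios between members do not depend on a factor applied to a whole library, but they do depend on the length assigned to each gene. The length and GC offsets differ by gene and would move these ratios and the family shares, and they were not applied here. Per kilobase, Zc3h12a stood at 0.756 ± 0.106 times the level of Zc3h12c at time 0, at 5.84 ± 0.685 times after 12 hours and at 5.53 ± 1.30 times after 24 hours, so that the ratio of the Regnase mRNAs turned over by 12 hours. The ratio of Rc3h1 to Rc3h2 was 1.61 ± 0.0489, 1.77 ± 0.0691 and 2.45 ± 0.256, but with the longest transcript in place of all exons it was 0.756 ± 0.0229, 0.828 ± 0.0324 and 1.15 ± 0.12, so which of the Roquin mRNAs was the more abundant depends on the length used at time 0 and 12 hours. Khsrp stood at 10.3 ± 0.332, 10.6 ± 0.367 and 5.0 ± 0.0994 times the level of Elavl1, or at 6.20 ± 0.200, 6.35 ± 0.221 and 3.01 ± 0.0598 times with the longest transcript. Against the summed Zfp36 family, Khsrp stood at 0.534 ± 0.0363, 0.402 ± 0.0167 and 0.225 ± 0.0116. This last ratio was lower at each later time with no overlap between the libraries.

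The promoters were searched for sites of factors known to drive early response genes. RefSeq sequences (GRCm38.p6) from 250 bases before to 50 bases after the start were found for 8 of the 9 members, without Zfp36l2. Both strands were searched for the κB motif, the CArG box of serum response factor, the AP-1 site TGACTCA, the cAMP response element TGACGTCA and the Egr-1 site GCGGGGGCG, which did not overlap one another in the members. Of 32851 promoters, 8.46%, 1.63%, 5.2%, 1.79% and 2.91% hold them, in that order. Zfp36 held a CArG box, CCATAAAAGG, from -58 to -49 relative to the start, and a GCGGGGGCG from -105 to -97. Rc3h1 held a TGACTCA from -133 to -127 and Zc3h12c a κB match from -236 to -227. The other 5 members searched, Zc3h12a among them, held no match in this window, which says only that these letters are not there. The promoters of the 2 members called after 24 hours and known as feedback genes are shown upstream of the start, with matches in capitals. The RefSeq start of Zfp36 lies inside a longer gene model of the count table.
Zfp36, chr7:28379229-28379478 (minus strand): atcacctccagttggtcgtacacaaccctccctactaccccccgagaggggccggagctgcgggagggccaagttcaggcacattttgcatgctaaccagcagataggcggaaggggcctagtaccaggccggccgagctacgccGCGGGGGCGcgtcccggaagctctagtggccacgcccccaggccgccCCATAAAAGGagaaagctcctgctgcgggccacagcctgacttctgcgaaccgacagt
Zc3h12a, chr4:125127882-125128131 (minus strand): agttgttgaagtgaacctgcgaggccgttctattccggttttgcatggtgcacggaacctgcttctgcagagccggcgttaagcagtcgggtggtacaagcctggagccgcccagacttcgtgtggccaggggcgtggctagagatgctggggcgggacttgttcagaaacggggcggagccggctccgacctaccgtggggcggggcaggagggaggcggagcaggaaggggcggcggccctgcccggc

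The machinery that the members recruit held no called gene at 12 hours, but only 1.60% of all genes were called there, so nothing is read from this count. None of the 18 deadenylation genes, the 18 decapping and 5′-to-3′ decay genes, the 15 exosome genes or the 15 tested genes of other AU-rich element and stability binding proteins was called by edgeR, DESeq2 or limma-voom. At an unadjusted p under 0.05 there were 6, 3, 2 and 1 of them, beside 21.4% of all genes tested, and their median log2 fold changes were 0.02, -0.01, -0.02 and 0.02, against -0.0049 for all genes tested. Without the fold limit 3 of the 18 deadenylation genes passed, beside 10.3% of all genes. These were the adaptors Btg2 (log2 fold change 0.54, adjusted p = 5.0e-08), from 80.4 to 85.1 CPM to 113 to 124 CPM, and Btg1 (0.33, adjusted p = 7.7e-06) and the CCR4-NOT subunit Cnot11 (-0.18, adjusted p = 0.00081). Patl1, a decapping factor (0.19), and the exosome subunit gene Exosc8 (0.19) passed as well, and these 5 are named after their values were seen. A list of 17 kinases, phosphatases, proteases and partner proteins that act on or with the members held 1 called gene, beside 1.60% of all genes. Without the fold limit 4 of the 17 passed, beside 10.3% of all genes. The called gene was Bcl10, a partner of the protease Malt1 that cleaves Regnase-1 (log2 fold change 0.60, SE 0.044, adjusted p = 5.0e-08). This call was lost, leaving 0 of 17, with upper-quartile factors, total counts and the length and GC offsets.

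At 24 hours calls fell in both directions in these lists. Of the deadenylation genes, Btg2 (0.62) and Cnot4 (0.69) were higher and Cnot11 (-0.77) and Tob1 (-0.76) lower in log2 fold change against time 0. Cnot4 and Cnot11 are CCR4-NOT subunits, and Btg2 and Tob1 are adaptors of its deadenylases. Of the decapping genes, Lsm3 (0.77) and Lsm5 (0.67), subunits of the Lsm ring, were higher, and the decapping helicase Ddx6 was lower at -1.17, from 209 to 227 CPM at time 0 to 89.0 to 101 CPM. Of the exosome genes 0 of 15 were called by edgeR and limma-voom and 1 by DESeq2, with 14 at an unadjusted p under 0.05 (72.8% of all genes) and a median of -0.23. Of the other binding proteins, Igf2bp3 (0.61), which protects mRNAs, and Tial1 (0.71), a translational repressor, were higher. These are 4 of 18, 3 of 18, 0 of 15 and 2 of 15 genes, beside 28.8% of all genes, with medians of 0.06, -0.04, -0.23 and 0.29 against -0.02. With the length and GC offsets 1 exosome gene and 5 of the other binding proteins were called, and with total counts 2 exosome genes.

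Of the 17 genes of enzymes and partner proteins that act on or with the members, 4 were called at 24 hours, beside 28.8% of all genes. Dusp1, a phosphatase that switches off the p38 pathway by which Zfp36 is phosphorylated, measured 28.6 to 32.6 CPM at time 0 and 145 to 164 CPM (log2 fold change 2.31, SE 0.062, adjusted p = 8.1e-12). Bcl10 was higher by 1.15 (log2). Mapk14, which encodes p38α, was lower by -0.81 and Upf1, the helicase that Regnase-1 works with, by -1.03, from 89.9 to 105 CPM to 47.2 to 50.2 CPM. From 12 to 24 hours the called genes of the 5 lists were Cnot4 (0.64), Lsm3 (0.67), Lsm5 (0.75), Tial1 (0.70) and Dusp1 (1.87), which were higher, and Tob1 (-0.70), Ddx6 (-1.10), Nufip2 (-0.64), Mapk14 (-0.71) and Upf1 (-0.95), which were lower. These are 10 genes from lists of 18, 18, 15, 15 and 17 tested, beside 25.7% of all genes called. Nufip2 is a partner of Roquin. Of the exosome genes 0 were called by edgeR, DESeq2 or limma-voom in this step, with 12 at an unadjusted p under 0.05 (73.3% of all genes).

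Of the mRNAs that Zfp36 proteins are known to bind, 7 of the 14 tested were called at 12 hours, all higher, beside 1.60% of all genes. The list was chosen with results of these data known, so its direction is not independent evidence. The list has 20 genes, of which 6 were not tested. Without the fold limit 12 of the 14 passed (10.3% of all genes), and Vegfa (0.10, adjusted p = 0.30) and Il23a (0.08, adjusted p = 0.96) did not. The median log2 fold change was 0.58. Tnf and Csf3 passed the low-count filter only through the 12-hour libraries, where they are high, and so had to differ. Of the 11 genes at the minimum in every library of both groups, 5 were called higher, with a median of 0.49. Cxcl1 and Cxcl2, chemokines for neutrophils, went from 4.79 to 7.34 CPM to 444 to 542 CPM (log2 fold change 6.39, SE 0.10) and from 0.532 to 0.872 CPM to 41.0 to 54.6 CPM (6.05, SE 0.15). Csf3, the growth factor of granulocytes, had 5, 4 and 2 counts at time 0 and 73, 159 and 105 counts after 12 hours. Tnf had 0 counts in each time 0 library and 20, 11 and 24 counts after 12 hours, so no fold is given. Il1b is not among the genes of the table, and Il6 and Csf2 had at most 2 counts in any library.

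The 24-hour picture of these targets was mixed in direction. Of 14 tested, 11 were called higher and 2 lower, beside 12.0% and 16.8% of all genes, and the median change was 1.97 (log2). Ccl2 and Csf3 were tested only through the 24-hour libraries. Of the 11 genes at the minimum in every library of both groups, 8 were called higher and 2 lower, with a median of 1.86 (log2). Cxcl2 (6.53) and Cxcl1 (6.25) were among the largest. Csf3 had 120, 192 and 184 counts after 24 hours, and Ccl2, a monocyte chemokine, had 2, 2 and 0 counts at time 0 and 16, 17 and 35 counts after 24 hours. The 2 lower ones, named after their values were seen, were Myc, from 80.4 to 82.1 CPM to 39.8 to 42.0 CPM (-0.98, SE 0.044, adjusted p = 7.4e-10), and the cyclin gene Ccnd1 (-0.61). Whether reads of the human MYC transgene of this line were assigned to mouse Myc was not tested. From 12 to 24 hours 5 of 15 were called higher and 2 lower, beside 25.7% of all genes in either direction, and of the 12 at the minimum in every library of both groups 3 were higher and 2 lower. Fos, an AP-1 subunit, rose from 24.8 to 26.2 CPM to 188 to 199 CPM (2.95, SE 0.043) and Ptgs2, which encodes the prostaglandin synthase COX-2, from 65.3 to 67.9 CPM to 426 to 461 CPM (2.74, SE 0.041). The kinase gene Plk3 (1.38) and the cytokine gene Il23a (1.65) were also higher, the latter from only 7 to 11 counts to 13 to 44 counts. Il23a and Ccl2 were at the filter's minimum in 3 of the 24-hour libraries but only 1 of the 12-hour ones. They thus entered the test mainly through the group where they are high.

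Known targets of Regnase and Roquin were counted in the same way. Of 16 genes 13 were in the table, and Tnf, Cxcl1, Ptgs2, Il6 and Il1b stand in both target lists. At 12 hours 9 of 11 tested genes were called, all higher, beside 1.60% of all genes, and the median change was 2.14 (log2). Without Tnf, which was tested only through the 12-hour libraries, 8 of 10 were called, with a median of 2.09. Nfkbiz went from 17.9 to 22.1 CPM to 194 to 209 CPM (3.30, SE 0.057, adjusted p = 1.9e-16) and Cxcl5, a chemokine, from 11.1 to 15.1 CPM to 471 to 670 CPM (5.37, SE 0.13). At 24 hours 8 of 10 were called higher and 1 lower (28.8% of all genes in either direction), with a median of 1.41. The lower one was Tnfrsf4, which had only 2 to 29 counts in any library and was below the minimum in 1 of the 24-hour libraries. The antimicrobial gene Lcn2 went from 8.62 to 10.9 CPM at time 0 to 190 to 221 CPM (4.39, SE 0.080). From 12 to 24 hours 2 of 11 were called higher, Ptgs2 and Lcn2 (2.02), and 4 lower (25.7% of all genes in either direction), or 3 lower without Tnfrsf4. Nfkbiz fell to 59.2 to 66.6 CPM (-1.62, SE 0.048), which was still above time 0 and in the same direction as Zc3h12a over this step.

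**Figure D5:**
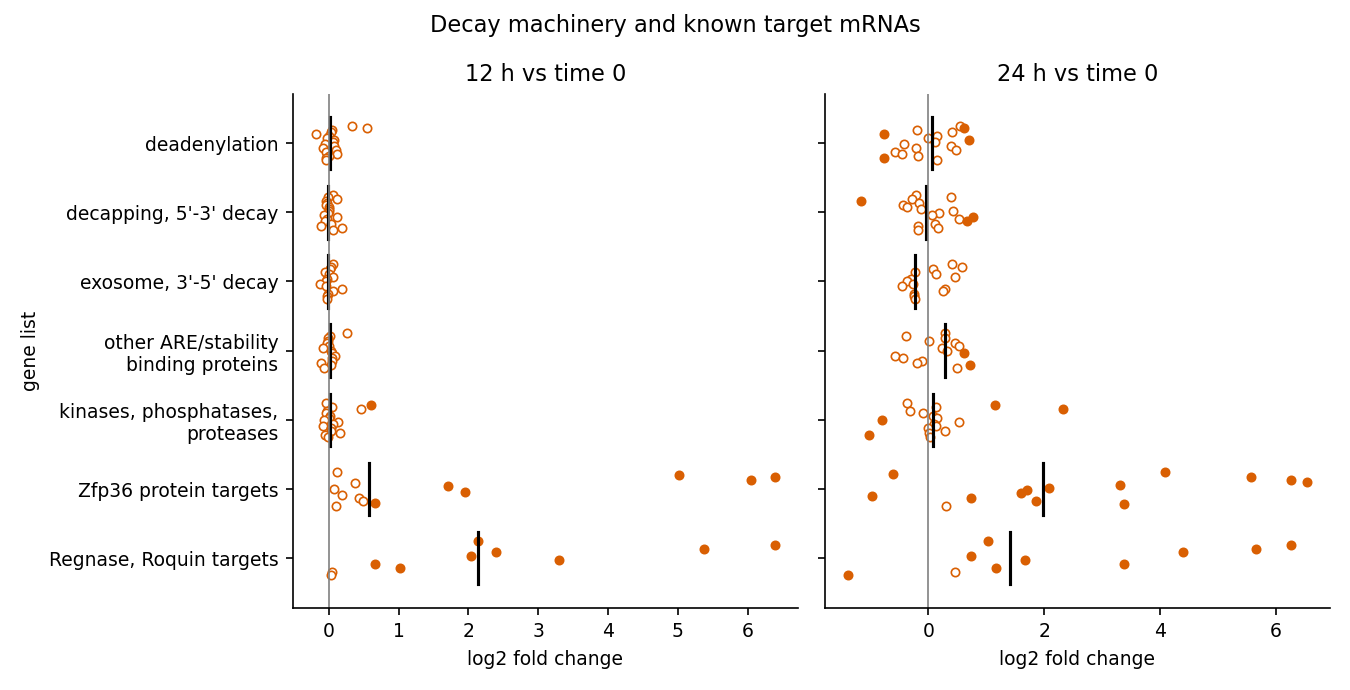
Log2 fold change (horizontal axis) of each tested gene in 5 lists of decay machinery and 2 lists of known targets, at 12 hours and 24 hours against time 0, without Tnf, which has no counts at time 0. Filled points were called and the black bar is the median over all tested genes of a list. At 12 hours the machinery lists centre near 0, with medians of -0.02 to 0.02, while the target lists have medians of 0.58 and 2.14. Over the genes at the filter's minimum in every library of both groups, the target medians are 0.49 and 2.09. The target lists were chosen with results of these data known.

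Genes were also grouped by the nonamer alone. At 12 hours, 925 of the 11340 tested genes with an annotated 3′ UTR held TTATTTATT at least 1 time, and 20 of them (2.16%) were called higher, against 1.42% of the genes without it. The median log2 fold changes were 0.0063 and -0.0062. Their 3′ UTRs were longer, with medians of 2304 and 1074 bases, and within the middle range of lengths (498 to 2265 bases) the shares were 2.98% (12 of 403) and 1.65% (87 of 5271). Among the 201 genes with 2 or more nonamers, 5 were called higher, and these were Tnf, Cxcl2, Cxcl1, Lif and Ankrd1, of which Tnf was tested only through the group where it is high. Among all 20, Cxcl3, Casp4 and Rasgef1a averaged 0.047, 0.084 and 0.146 CPM at time 0, under the filter's minimum of 0.226 CPM. They entered the test mainly through the 12-hour libraries, where they are high, so the shares called higher rest partly on such genes. Genes of this kind without the nonamer were not counted. At 24 hours, 11.3% of the genes with the nonamer were called higher and 19.8% lower, against 12.1% and 16.4% without it. Within the middle range of lengths, 13.6% were called higher and 19.6% lower, against 11.4% and 17.1%, so the order of the shares called higher turned. The shares are given as counts, and their differences were not tested.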

How the data were processed

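RNA-Seq was performed on the 9 MyC-CaP libraries described above. The authors trimmed reads (Cutadapt), aligned them to GRCm38.p6 (STAR) and assigned them to genes (featureCounts). The deposited raw counts were used without change. In R 4.3.3, each pair of time points was compared with the quasi-likelihood test of edgeR 4.0.16 after filterByExpr and TMM scaling, with no block. The Benjamini-Hochberg adjustment covered all tested genes, and genes with an adjusted p of at most 0.05 and at least 1.5-fold were called. CPM values were TMM scaled over the 9 libraries. Exon lengths, 3′ UTRs and sites came from GENCODE M21 (15374 of 15384 genes found), in place of the annotation of the authors. DESeq2 1.42.0, limma 3.58.1, other scalings and filters, a replicate block, length and GC offsets (loess span 0.3) and leaving out each library were tried as alternatives, and the scripts were tested on simulated data. Levels and ratios by longest transcript, nonamer genes within the middle range of lengths and list genes at the filter's minimum (a CPM equal to 10 counts at the median depth) in both groups were chosen after seeing the data. The replicates of a time point differed by more than sampling noise. The members and lists were chosen with earlier results of these data known. All 9 members were named, with up to 4 of the called genes of a list by size of change (all where 5 or fewer were called) and the 3 closest profiles of called members, from which the text gives those of Zc3h12a and Khsrp.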

Additional observations from a re-analysis of the deposited data

Results flagged for a closer look

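In 3 of the 9 members the change from time 0 differed between 12 and 24 hours by the direct test of one time against the other with the 1.5-fold limit, beside 25.7% of all genes. Zfp36l2 and Rc3h2 also passed the adjusted p of this test, under that limit. Zc3h12a was 3.12 above time 0 after 12 hours and 2.36 after 24 hours, with a difference of -0.74 (log2, SE 0.11, adjusted p = 4.0e-05 in edgeR), and each 24-hour library was below each 12-hour library. Zc3h12c was at 0.16 and -0.51, with a difference of -0.65 (SE 0.076, adjusted p = 4.4e-06). Khsrp was at 0.05 and -1.05, with a difference of -1.08 (SE 0.037, adjusted p = 7.5e-11). All 3 changes against time 0 share the same time 0 libraries. All 3 differences stayed past both limits with each of the 12 alternatives and without any single library, from -0.96 to -0.60 for Zc3h12a, from -0.88 to -0.61 for Zc3h12c and from -1.30 to -0.78 for Khsrp. The 24-hour libraries also differed from the others in their TMM factors and mitochondrial share, and the part of that in these differences was not tested beyond the scalings.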

How the results depend on the processing

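The count of members called at 12 hours went from 2 to 1 with upper-quartile factors, total counts, length and GC offsets and these offsets with the replicate block, as Zfp36l1 came under 1.5-fold, and was 1 to 2 with a library left out. With the adjusted p alone the members called were 4, 7 and 5 at 12 hours, 24 hours and between them, and all genes called were 1178, 8119 and 8124. The replicate numbers did not pair the libraries (correlations of same-numbered libraries -0.098 to 0.056), and with the replicate block the genes called were 172, 3247 and 2926 against 182, 3298 and 2924, with no change in the call of a member, although Zfp36 from 12 to 24 hours then passed the adjusted p (0.030). The sign of Elavl1 turned under several settings, and it passed the adjusted p with total counts at 24 hours (-0.23, adjusted p = 0.0018), with total counts from 12 to 24 hours (-0.22, adjusted p = 0.00033) and with the offsets from 12 to 24 hours (0.11, adjusted p = 0.035, or 0.042 with the block). At 12 hours it was -0.0018 with upper-quartile factors, -0.0083 with total counts, -0.013 with the offsets, -0.012 with the offsets and block and -0.021 to 0.038 with a library left out. At 24 hours it was 0.0060 with DESeq2, 0.0059 with RLE factors, 0.024 with upper-quartile factors, 0.097 with the offsets, 0.096 with the offsets and block and -0.028 to 0.028 with a library left out. From 12 to 24 hours it was -0.00088 with DESeq2, -0.00092 with RLE factors, -0.22 with total counts, -0.00086 with no filter, -0.0041 with at least 10 counts in every library, -0.016 with all 9 libraries in one fit and -0.020 to 0.023 with a library left out. With total counts Zfp36l2 (-0.18) and Rc3h1 (-0.042) turned at 24 hours, and Zfp36 (-0.11) and Rc3h1 (-0.19) from 12 to 24 hours. With a library left out Zfp36l2 at 24 hours was -0.014 to 0.095 and Rc3h1 from 12 to 24 hours -0.027 to 0.087. Total counts brought the median of all genes to -0.24 at 24 hours, and of the genes called there 18.8% were higher, against 41.7% with TMM and 50.03% with the offsets. From 12 to 24 hours these shares were 14.6%, 40.5% and 50.7%. The causes of these shifts were not tested. The lowest count of a member in any library was 198, and the effect of depth on the calls was not tested. The 1.5-fold limit kept 2, 4 and 2 members that passed the adjusted p from being called at 12 hours, 24 hours and between them.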
